A study of Mus musculus with 4 samples.

Results

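The Fn1 wound macrophages without Il7r were single CD45+ cells from healing mouse skin that held many transcripts of Fn1 and none of Il7r. They numbered 618 of 19827 cells that passed the filters. A cell was taken as a member when it had at least 200 detected genes, at most 10% of its transcripts from mitochondrial genes, at least 5 UMIs (unique molecular identifiers, 1 for each captured transcript) of Fn1 and at least 5 of 1 further gene, and 0 of Il7r and of Hdc. It also had fewer than 5 UMIs of Retnla, fewer than 10 of C1qa, C1qb and C1qc together, and fewer than 20 of Rsad2, Ifit1 and Ifit3 together. The members were thus chosen by their own counts. The levels of the genes in the rule are a description, and no test of them was made.

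Live CD45+ leukocytes were sorted from 3 mm full-thickness wounds on the backs of mice, either 1 or 5 days after wounding (days post wounding, dpw), and sequenced as 4 droplet libraries, 1 for each genotype and day. The Angptl4+/+ mice and the Angptl4-/- mice, which lack the secreted protein angiopoietin-like 4 in every cell type, were both labelled C57BL6/J, were 8-week-old males per the study's methods and had no treatment other than the wound. The wild-type animals came from a commercial supplier and the knockout from a repository line. Littermate controls are not described, and how many mice fed each library is not given in the sources used here. Since each condition had a single library, no replicates existed and no test between conditions was made, and every interval below is a 95% interval that covers counting error only. Each library is also its own set of mice, sort and library preparation, and these cannot be told apart from genotype or day.

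Macrophages in a skin wound arise largely from blood monocytes that enter through CCR2, first clear microbes and dying cells, and later support the closing of the wound. Fibronectin, the product of Fn1, is a glycoprotein of the early wound matrix on which cells crawl, and osteopontin, the product of Spp1, is a secreted phosphoprotein that binds integrins. Il7r encodes the interleukin-7 receptor chain, best known from lymphocytes.

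Members made up 207 of 5346 passing cells in Angptl4+/+ wounds at 1 dpw (3.87%, exact Clopper-Pearson interval 3.37 to 4.42) and 132 of 4798 in Angptl4-/- wounds (2.75%, 2.31 to 3.25). At 5 dpw they made up 228 of 4945 (4.61%, 4.04 to 5.23) and 51 of 4738 (1.08%, 0.802 to 1.41). The Angptl4-/- share was lower at both days, by -1.12 percentage points at 1 dpw (Newcombe interval -1.82 to -0.423) and by -3.53 points at 5 dpw (-4.21 to -2.89). Between the days the share differed by 0.739 points in Angptl4+/+ wounds (-0.0401 to 1.53), an interval that holds 0, and by -1.67 points in Angptl4-/- wounds (-2.24 to -1.13). The Angptl4-/- direction turned when only cells with at least 5000 UMIs were taken. Of those cells, members made up 2.09% in the earlier and 2.97% in the later Angptl4-/- library. In the Angptl4+/+ libraries they made up 3.06% and 7.18%. All shares are of sorted CD45+ cells, so they also move with the number of neutrophils, which by S100a8, S100a9 and Csf3r counts were 2820 and 2682 cells at 1 dpw and 1885 and 2593 cells at 5 dpw in Angptl4+/+ and Angptl4-/- wounds. In all such pairs below the Angptl4+/+ value comes first.

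**Figure D1:**
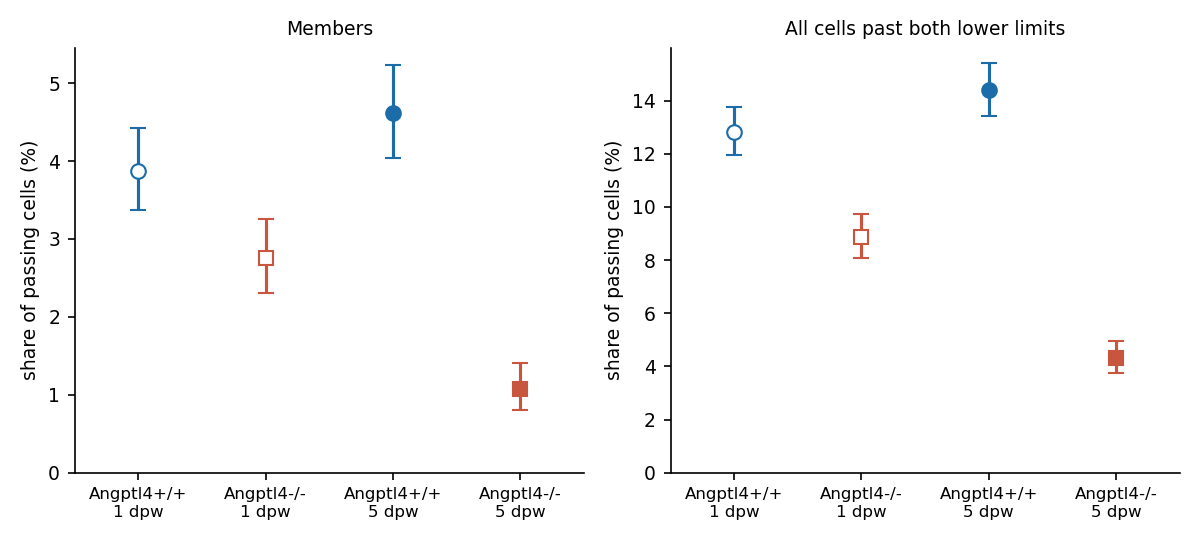
Members as a percentage of passing CD45+ cells in each library (vertical axis, percent), with exact Clopper-Pearson 95% intervals as bars, for both genotypes on both days. The 4 shares are 3.87%, 2.75%, 4.61% and 1.08%, and the intervals of the genotypes do not overlap at either day.

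The wider set of cells past both lower limits, that is with at least 5 UMIs of Fn1 and of the further gene before any other step, held 686 and 426 cells at 1 dpw and 712 and 205 cells at 5 dpw. These were 12.8% and 8.88% of passing cells at 1 dpw and 14.4% and 4.33% at 5 dpw, and the Angptl4-/- minus Angptl4+/+ differences were -3.95 points (-5.16 to -2.75) and -10.1 points (-11.2 to -8.94). Members made up 30.2%, 31.0%, 32.0% and 24.9% of that set in the order Angptl4+/+ and Angptl4-/- at 1 dpw, then at 5 dpw. Within it, the genotypes differed by 0.811 points at 1 dpw (-4.68 to 6.44) and by -7.14 points at 5 dpw (-13.6 to 0.0166), and both intervals hold 0. The lower member shares of Angptl4-/- wounds thus went with fewer cells past the lower limits as a whole. Under the full rule, the interval for the fraction of them that were members only just holds 0 at 5 dpw, with an upper end of 0.0166. It covers counting error only, so a smaller fraction in Angptl4-/- wounds was neither shown nor excluded. The fraction at 5 dpw depended on the rule. Before the Retnla, C1q and interferon-gene limits, 505 of 712 and 92 of 205 cells were left. Cells without an Il7r UMI made up 78.1% and 55.1% of the set.

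Of the steps after both lower limits, the Il7r step took out the most cells in 3 of the 4 libraries. It took out 370 and 232 at 1 dpw and 156 and 92 at 5 dpw. The complement step, which removes cells rich in C1qa, C1qb and C1qc, took out 20 and 11 cells at 1 dpw but 259 and 36 at 5 dpw. Hdc, the histidine decarboxylase gene, took out 70, 41, 51 and 21 cells in that order, and the interferon-gene step took out 16, 8, 4 and 5. The C1q step therefore weighed on the Angptl4+/+ library at 5 dpw more than on any other, and a rule without the C1q, Retnla and interferon-gene limits gave a larger genotype difference at 5 dpw, of -8.27 points.

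A count of 0 for Il7r depended on how deeply a cell was sequenced. Among cells past both lower limits in Angptl4+/+ wounds at 1 dpw, 76.8% of those under 3000 UMIs had no Il7r UMI, 55.2% of those from 3000 to 6000, 35.2% of those from 6000 to 12000 and 28.2% of deeper ones. In Angptl4-/- wounds at 1 dpw the same bins held 66.7%, 54.5%, 28.5% and 41.3%. At 5 dpw the Angptl4+/+ bins held 95.8%, 82.7%, 77.4% and 63.2%, all above the 1 dpw bins of the same depth, and the Angptl4-/- bins held 50% (6 of 12 cells), 67.7%, 51.9% and 54.2%. When each cell was thinned to 2000 UMIs, 61.2% and 61.8% of the cells past both lower limits had no Il7r UMI at 1 dpw and 88.0% and 76.0% at 5 dpw, against 46.1%, 45.5%, 78.1% and 55.1% unthinned. The thinning left out 65 and 46 shallower cells at 1 dpw and 30 and 5 at 5 dpw, and it alone turned 32.9%, 33.2%, 47.1% and 46.1% of the Il7r-positive cells into cells with none. In neutrophils thinned to the same depth (unthinned medians 4931 and 4917.5 UMIs at 1 dpw and 3328 and 3472 at 5 dpw), 0.540% and 0.343% at 1 dpw and 0.581% and 0.413% at 5 dpw of cells had an Il7r UMI, far below the cells past both lower limits. Il7r (chromosome 15, 9505788 to 9530176 of GRCm38) was thus not counted in the members, and at their depth that does not show that the transcript was absent.

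**Figure D2:**
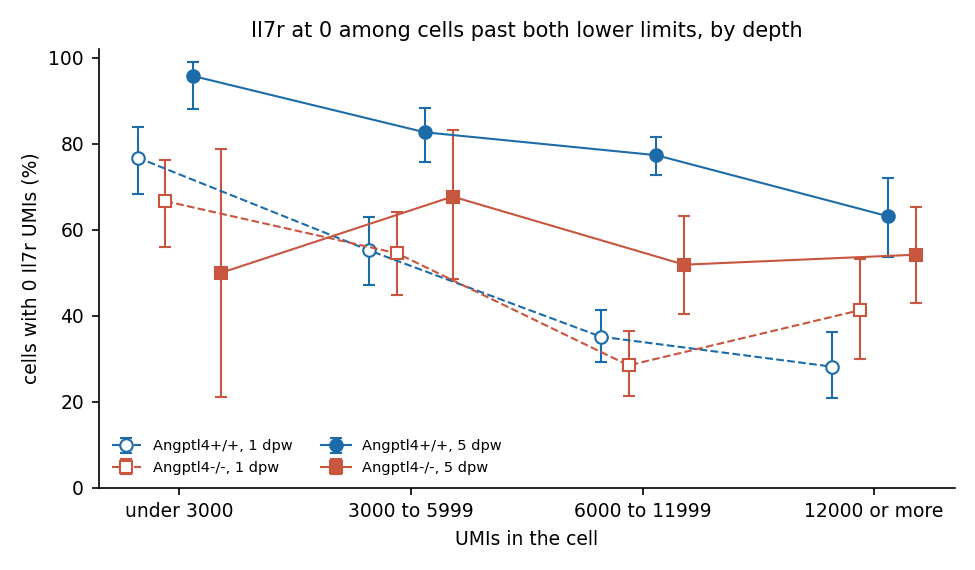
Percentage of cells past both lower limits with no Il7r UMI (vertical axis) by UMIs per cell in 4 bins (horizontal axis), 1 line per library, with exact 95% intervals. In the Angptl4+/+ libraries the percentage is lower in each deeper bin, from 76.8% to 28.2% at 1 dpw and from 95.8% to 63.2% at 5 dpw.

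Members were shallower than their Il7r-positive neighbours and their depth differed between libraries. The median member held 3629 and 3917 UMIs at 1 dpw and 5778 and 9037 UMIs at 5 dpw, whereas the median of all passing cells was 4975.5 and 4814.5 UMIs at 1 dpw and 3873 and 3735.5 at 5 dpw. The median Il7r neighbour, a cell that met the rule apart from having at least 1 Il7r UMI, held 7779.5 and 6651 UMIs at 1 dpw and 8763 and 10299 at 5 dpw. Summed over members, the libraries gave 1077558 and 622331 UMIs at 1 dpw and 1432861 and 466040 at 5 dpw. Levels below are UMIs of a gene in all members of a library together, per 1000000 UMIs of those members (CPM), and since 3' counts do not scale with transcript length, levels of different genes may be set beside each other only as UMIs. In such a sum, fewer expressing cells and less RNA per cell cannot be told apart. Of the members 2 carried a high score for simulated doublets, against 806 of all passing cells, and none were removed. No barcode was a member in more than 1 library, and each pair of libraries had 5 to 15 cell barcodes in common.

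Members close to the Fn1 limit were few. With 5 or 6 UMIs of Fn1 there were 8 and 7 members at 1 dpw and 12 and 1 at 5 dpw, and 20, 15, 12 and 3 cells missed the rule with 3 or 4. A typical member was far from the limit, since the median member held 25 and 29 Fn1 UMIs at 1 dpw and 29.5 and 37 at 5 dpw, with highest values of 341, 162, 375 and 214.

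The label was checked against marker genes. All 11 macrophage markers were detected, and their summed level was close in the 4 libraries at 12418 and 13253 CPM at 1 dpw and 12778 and 13188 CPM at 5 dpw. The most abundant was Lyz2, the lysozyme of myeloid cells, at 6218 and 6222 CPM at 1 dpw and 7581 and 7783 CPM at 5 dpw. Adgre1, which encodes F4/80, stood at 100.2 and 139.8 CPM at 1 dpw and 164 and 167 CPM at 5 dpw, and it is a low-count transcript in these cells. The 6 monocyte markers summed to 3388 and 4056 CPM at 1 dpw and 3250.1 and 2828 CPM at 5 dpw, with the chemokine receptor gene Ccr2 the most abundant in each library. The members thus carried macrophage markers in all 4 libraries, with monocyte genes beside them.

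Fn1 (chromosome 1, 71585520 to 71653200 of GRCm38) was in the rule, and its level is given as a description. It reached 7498 and 7819 CPM at 1 dpw and 6253 and 6160.4 CPM at 5 dpw. By its mean level over the 4 libraries it ranked among the 10 most abundant transcripts outside the mitochondrial and ribosomal protein genes, together with the ferritin genes Fth1 and Ftl1, which encode the iron store, and the actin gene Actb. The highest by that mean was Gm42418, at 14447 and 21595 CPM at 1 dpw and 45026 and 32233 CPM at 5 dpw, although Fth1 and Malat1 were above it in Angptl4+/+ members at 1 dpw. Gm42418 is an annotated transcript that overlaps ribosomal RNA and is known to collect such reads. AY036118, at the same locus, was at 241 and 538 CPM at 1 dpw and 907 and 1388 CPM at 5 dpw.

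Spp1 (chromosome 5, 104435118 to 104441050), the third marker of the label and not part of the rule, stood at 3333 and 5004 CPM at 1 dpw and 669 and 1991 CPM at 5 dpw. It was spread unevenly over cells, since the median member held 3 and 2 Spp1 UMIs at 1 dpw and 0 and 0 at 5 dpw while the highest held 565, 536, 80 and 350. Spp1 was also present in neutrophils at 5420 and 6589 CPM at 1 dpw and 2681 and 2570 CPM at 5 dpw, in each library above the member level. Spp1 therefore did not set the members apart from other sorted leukocytes.

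Markers of other cell types were at or near 0, with neutrophil genes the main exception. The 8 neutrophil markers summed to 1426 and 1138 CPM at 1 dpw and 767 and 318 CPM at 5 dpw, with S100a8 and S100a9 most abundant and Ly6g, the neutrophil surface antigen gene, at 0 in both 5 dpw libraries. S100a8 in members was at 0.925% and 0.534% at 1 dpw and 0.876% and 0.369% at 5 dpw of its level in neutrophils, and S100a9 at 0.512% and 0.433% at 1 dpw and 0.613% and 0.181% at 5 dpw. Csf3r, the receptor gene of granulocyte colony-stimulating factor, stood higher, at 2.18% and 5.37% at 1 dpw and 3.45% and 2.06% at 5 dpw of the neutrophil level, as did Il1r2, a decoy receptor gene, at 2.17% and 2.56% at 1 dpw and 1.09% and 1.01% at 5 dpw, and the other 4 markers were at most at 0.653%. The dendritic cell, B cell, mast cell and basophil, fibroblast, keratinocyte and erythroid marker lists summed to at most 15.0 CPM in any library, the NK and T cell list to at most 36.5 CPM and the endothelial list to at most 75.5 CPM, and none of these lists had a gene with 100 UMIs over 2 libraries compared. Gzma, a cytotoxic granule gene, had 14 UMIs in Angptl4-/- members at 5 dpw, 13 of them in 1 cell, and the endothelial marker Pecam1, which leukocytes also carry, was at 45.5 and 67.5 CPM at 1 dpw and 16.7 and 34.3 CPM at 5 dpw.

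Angptl4 itself was too rare in members to compare, with 5 UMIs at 1 dpw and 2 at 5 dpw in Angptl4+/+ members and 0 in both Angptl4-/- sets. Ifi202b, an interferon-inducible gene of the AIM2-like family, was at 0 in both Angptl4+/+ sets and at 191 and 79.4 CPM in Angptl4-/- members at 1 and 5 dpw, at least 68.7-fold and at least 37.9-fold higher against a floor of 3 UMIs per library. Hebp1, a heme-binding protein gene, was at 9.28 and 231 CPM at 1 dpw and 9.77 and 129 CPM at 5 dpw. The log2 ratio of Hebp1 was 4.64 (3.72 to 5.73) at 1 dpw and 3.72 (2.86 to 4.67) at 5 dpw, the latter on fewer than 100 UMIs. The 5 dpw value of Ifi202b rests on fewer than 100 UMIs as well. Both genes were thus present in each Angptl4-/- library and at or near 0 in each Angptl4+/+ library, on both days.

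The design gave 4 comparisons, Angptl4-/- over Angptl4+/+ at each day and 5 over 1 dpw in each genotype. Each library enters 1 genotype comparison and 1 day comparison, so those are not independent of each other. A gene was called past 2-fold at a log2 ratio of CPM of at least 1 in size with at least 100 UMIs over the pair, and a gene with fewer UMIs was not counted.

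Between 1 and 5 dpw, most counted inflammatory genes were lower and most counted antigen presentation genes higher in members of both genotypes, and a part of the lipid handling genes was higher. In Angptl4+/+ members 85 genes were past 2-fold higher at 5 dpw (2.32% of 3667) and 93 lower (2.54%). In Angptl4-/- members 24 were higher (1.34% of 1797) and 69 lower (3.84%). The median gene stood at -0.02 and -0.06. Among 1794 genes with enough UMIs in both comparisons, 16 were higher in both, which is 50% of the 32 called in Angptl4+/+ and 69.6% of the 23 called in Angptl4-/- members, and 28 were lower in both, 50% of 56 and 41.2% of 68. These counts hold genes that the rule itself limits, with C1qa, C1qb and C1qc among the 85 higher in Angptl4+/+ members and Rsad2 among the genes lower in both genotypes. Ly6a was past 2-fold in opposite directions, although the Angptl4-/- ratio of -1.02 was at the limit. Members were deeper at 5 dpw in both genotypes, and among members with at least 5000 UMIs alone 83 genes were higher and 81 lower in Angptl4+/+ and 27 higher and 56 lower in Angptl4-/- members.

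**Figure D3:**
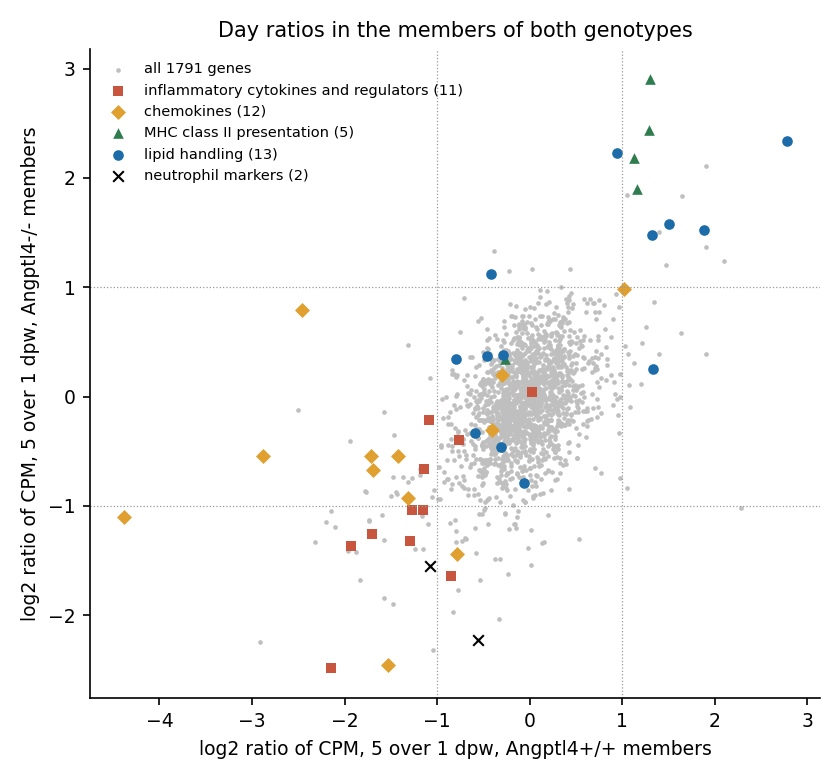
Log2 ratio of CPM at 5 over 1 dpw in Angptl4+/+ members (horizontal axis) and in Angptl4-/- members (vertical axis) for 1791 genes with at least 100 UMIs in both comparisons, each point a gene, with dashed lines at 1 and -1. Of 5 MHC class II presentation genes 4 lie beyond 1 on both axes, and 10 of 11 inflammatory genes lie below 0 on both.

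Of 13 inflammatory cytokine and regulator genes with enough UMIs in Angptl4+/+ members, 10 were past 2-fold lower at 5 dpw and 0 higher, with a list median of -1.15. In Angptl4-/- members 7 of 11 were lower and 0 higher, with a median of -1.03. Of these 7, Nlrp3 and Tnfaip3, an inhibitor gene of NF-kappaB signalling, were close to the limit, both at -1.03, and were past it under 3 and 5 of 8 alternative settings, which changed the depth, the scaling, the rule or the members left out. Il1b, which encodes interleukin-1 beta, stood at 3475 CPM at 1 dpw and 1422 CPM at 5 dpw in Angptl4+/+ members and 3381 and 1354 CPM in Angptl4-/- members, and its log2 ratio was -1.29 (95% interval -1.37 to -1.21) and -1.32 (-1.45 to -1.19). Il1rn, the antagonist of the same receptor, was at 369 CPM at 1 dpw and 97.0 CPM at 5 dpw in Angptl4+/+ members and 629.9 and 245 CPM in Angptl4-/- members, with ratios of -1.93 (-2.22 to -1.65) and -1.36 (-1.68 to -1.06). Among members with at least 5000 UMIs the Angptl4-/- ratio of Il1rn was -0.55, under 2-fold. Ptges, the prostaglandin E synthase gene, was at 200.5 CPM at 1 dpw and 45.4 CPM at 5 dpw in Angptl4+/+ members and 252 and 45.1 CPM in Angptl4-/- members, with ratios of -2.14 (-2.57 to -1.74) and -2.49 (-3.22 to -1.82).
The inflammasome sensor gene Nlrp3 was at 311 CPM at 1 dpw and 128 CPM at 5 dpw in Angptl4+/+ members and 246 and 120.2 CPM in Angptl4-/- members. Thbd, the thrombin receptor thrombomodulin, was at 315 CPM at 1 dpw and 96.3 CPM at 5 dpw in Angptl4+/+ members and 210.5 and 88.0 CPM in Angptl4-/- members, and its Angptl4-/- ratio was -1.26 in all members but -0.60 in those with at least 5000 UMIs. Each of these genes was lower in both 5 dpw libraries than in either 1 dpw library. Tnf, past 2-fold lower in Angptl4+/+ members (-1.73), had too few UMIs in Angptl4-/- members to be counted. Ptgs2, the cyclooxygenase 2 gene, had ratios of -0.85 (-0.99 to -0.72) and -1.64 (-1.91 to -1.39).

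The neutrophil markers with enough UMIs were all lower at 5 dpw in members of both genotypes. S100a8 and Retnlg were past 2-fold lower at 5 dpw of 3 counted in Angptl4+/+ members (median -1.07), and S100a8 and S100a9 of 2 in Angptl4-/- members (median -1.89). Among members with at least 5000 UMIs the S100a8 ratios were -0.91 and -0.69, under 2-fold in both genotypes. Csf3r, with too few UMIs to be counted, was at 15.8 CPM at 1 dpw and 48.2 CPM at 5 dpw in Angptl4+/+ members and 40.2 and 27.9 CPM in Angptl4-/- members. Against neutrophils of the same library, Il1b in members was at 30.3% and 32.5% at 1 dpw and 9.08% and 8.36% at 5 dpw of the neutrophil level, Il1rn at 38.8% and 51.2% at 1 dpw and 10.1% and 22.0% at 5 dpw, and Nlrp3 at 26.3% and 22.3% at 1 dpw and 12.9% and 11.8% at 5 dpw, where the 8 neutrophil markers ranged from 0 to 5.37%, with Csf3r the highest. Ptges was at 2407% to 9937% and Thbd at 475% to 3895% of the neutrophil level. The part of neutrophil RNA in these levels was not tested.

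More chemokine genes were past 2-fold lower at 5 dpw in Angptl4+/+ than in Angptl4-/- members, a difference that was not tested. In Angptl4+/+ members 10 of 14 were past 2-fold lower and 1, Cxcl16, higher, with a median of -1.61, and in Angptl4-/- members 3 of 12 were lower and 0 higher, with a median of -0.55. Cxcl2, a neutrophil attractant and the most abundant of the list, was at 8719 CPM at 1 dpw and 2695 CPM at 5 dpw in Angptl4+/+ members and 6956 and 4369 CPM in Angptl4-/- members, with ratios of -1.69 (-1.75 to -1.64) and -0.67 (-0.75 to -0.59). Cxcl3, a close relative, was at 2096 CPM at 1 dpw and 285 CPM at 5 dpw in Angptl4+/+ members and 2038 and 1395 CPM in Angptl4-/- members, with ratios of -2.88 (-3.04 to -2.73) and -0.55 (-0.69 to -0.41). The Angptl4-/- library at 5 dpw thus had more of both, although 1 member, its deepest, gave 46.2% of its Cxcl3 UMIs. Ccl4, an attractant of monocytes and T cells, was at 317 CPM at 1 dpw and 109.6 CPM at 5 dpw in Angptl4+/+ members and 317 and 57.9 CPM in Angptl4-/- members, low in both 5 dpw libraries. Against neutrophils of the same library Ccl4 in members was at 4.74% and 4.52% at 1 dpw and 3.46% and 1.31% at 5 dpw of the neutrophil level, within the range of the neutrophil markers, and Ccl4 in neutrophils was lower at 5 dpw too, at 6696 and 3170 CPM in Angptl4+/+ and 6998 and 4411 CPM in Angptl4-/- wounds. Cxcl2 was at 27.3% and 22.5% at 1 dpw and 11.3% and 15.8% at 5 dpw and Cxcl3 at 101.7% and 93.4% at 1 dpw and 23.0% and 75.9% at 5 dpw of the neutrophil level. The part of neutrophil RNA in these levels was not tested. Ppbp, a platelet and macrophage chemokine gene, was at 394 CPM at 1 dpw and 18.8 CPM at 5 dpw in Angptl4+/+ members and 239 and 112 CPM in Angptl4-/- members, and the Angptl4+/+ ratio was -4.39 (-5.01 to -3.83).

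Several genes of the provisional matrix were also lower at 5 dpw. Of the provisional matrix and coagulation list, Thbs1, Vcan, Spp1 and Serpinb2 were past 2-fold lower and 0 higher of 16 in Angptl4+/+ members (median -0.26), and Spp1 alone lower of 14 in Angptl4-/- members (median -0.32). That list counts Fn1, a gene of the rule, at -0.26 and -0.34, so its medians are a description. Thbs1, which encodes the matrix glycoprotein thrombospondin 1, was at 6863 CPM at 1 dpw and 1995 CPM at 5 dpw in Angptl4+/+ members and 6365 and 3502 CPM in Angptl4-/- members, with ratios of -1.78 (-1.84 to -1.72) and -0.86 (-0.95 to -0.78). Neutrophils of the same libraries held more of it and were lower at 5 dpw as well, at 8411 and 3798 CPM in Angptl4+/+ and 8450 and 4730 CPM in Angptl4-/- wounds. Spp1 in members was at 61.5% and 75.9% at 1 dpw and 24.96% and 77.5% at 5 dpw of the neutrophil level. Of the repair growth factors only Inhba, the activin A subunit gene, was past 2-fold, lower in both genotypes of 5 counted in each (list medians -0.59 and -0.26). It was at 284 CPM at 1 dpw and 37.7 CPM at 5 dpw in Angptl4+/+ members and 305 and 64.4 CPM in Angptl4-/- members, and 1 member held 57.4% and 83.3% of its UMIs in the 5 dpw libraries. Among members with at least 5000 UMIs its Angptl4-/- ratio was -0.51 and that of Spp1 -0.99, against -2.25 and -1.33 in all members. Without the top members these 2 ratios were -4.66 and -1.74, and the Angptl4+/+ ratio of Inhba was -4.00.

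MHC class II genes, whose products present peptides to CD4+ T cells, were higher at 5 dpw in both genotypes. In Angptl4+/+ members 6 of 8 genes of the list were past 2-fold higher and 1, the costimulator gene Cd80, lower, with a median of 1.23, and in Angptl4-/- members 4 of 5 were higher and 0 lower, with a median of 2.18. H2-Aa, the alpha chain of I-A, was at 332 CPM at 1 dpw and 814 CPM at 5 dpw in Angptl4+/+ members and 148 and 803 CPM in Angptl4-/- members, with ratios of 1.29 (1.12 to 1.47) and 2.44 (2.11 to 2.79). H2-Eb1, the beta chain of I-E, was at 221 CPM at 1 dpw and 545 CPM at 5 dpw in Angptl4+/+ members and 75.5 and 566 CPM in Angptl4-/- members, with ratios of 1.30 (1.09 to 1.52) and 2.91 (2.45 to 3.39). Cd74, the invariant chain that guards the groove, was at 1094 CPM at 1 dpw and 2396 CPM at 5 dpw in Angptl4+/+ members and 551 and 2493 CPM in Angptl4-/- members. The levels at 5 dpw were alike in the genotypes and those at 1 dpw were lower in Angptl4-/- members, so the larger day ratio there rested on the 1 dpw library. The 7 dendritic cell markers had 0 UMIs in 3 libraries and 5 UMIs in Angptl4-/- members at 5 dpw.

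Promoters of class II genes carry an inverted CCAAT box, the Y box, in a conserved module. It is shown here because the genes were higher together, and the letters GATTGG, searched on both strands in the 150 bases before the start site, are in capitals. They were present in 10.94% of 32851 mouse promoters, H2-Aa held 1 match that starts 49 bases before the start site, and H2-Eb1 held 2, at 60 and 35 bases before. The sequences are from RefSeq (GRCm38.p6), 5′ to 3′ on the coding strand, chr17:34287824-34287973 (minus strand) for H2-Aa and chr17:34305717-34305866 (plus strand) for H2-Eb1. A match is a description of the letters only.
H2-Aa: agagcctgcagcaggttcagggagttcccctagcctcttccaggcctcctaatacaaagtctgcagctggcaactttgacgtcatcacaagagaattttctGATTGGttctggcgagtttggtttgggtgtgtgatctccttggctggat
H2-Eb1: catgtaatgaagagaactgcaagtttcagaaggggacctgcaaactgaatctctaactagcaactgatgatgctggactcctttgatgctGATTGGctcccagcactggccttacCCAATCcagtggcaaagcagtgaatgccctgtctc

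A part of the lipid handling genes was higher at 5 dpw. Of that list, 5 of 14 were past 2-fold higher in Angptl4+/+ and 6 of 13 in Angptl4-/- members, 0 were past 2-fold lower, and the medians were 0.44 and 0.38. In Angptl4+/+ members 7 genes lay above 0 and 7 below, among them Cd9 (-0.80), a tetraspanin gene, and Plin2 (-0.59), a lipid droplet coat gene, and in Angptl4-/- members 10 lay above and 3 below. Of the 6 called there, Fabp5, a fatty acid binding protein gene, was past 2-fold under 5 of the 8 alternative settings, with 0.80 without the top members, and Lipa under 6, with a lowest value of 0.51. Apoe, the apolipoprotein that carries cholesterol out of macrophages, was at 1355 CPM at 1 dpw and 5021 CPM at 5 dpw in Angptl4+/+ members and 1641 and 4727 CPM in Angptl4-/- members, with ratios of 1.89 (1.81 to 1.97) and 1.53 (1.42 to 1.64). Pltp, the phospholipid transfer protein gene, was at 99.3 CPM at 1 dpw and 681 CPM at 5 dpw in Angptl4+/+ members and 59.5 and 300.4 CPM in Angptl4-/- members, with ratios of 2.78 (2.49 to 3.08) and 2.34 (1.81 to 2.90). Trem2, a lipid-sensing receptor gene, was at 163 CPM at 1 dpw and 409.7 CPM at 5 dpw in Angptl4+/+ members and 93.2 and 259.6 CPM in Angptl4-/- members, and Lipa, the lysosomal acid lipase gene, was at 90.9 CPM at 1 dpw and 258 CPM at 5 dpw in Angptl4+/+ members and 59.5 and 178 CPM in Angptl4-/- members. Apoe, Pltp, Trem2 and Lipa were higher in each 5 dpw library than in either 1 dpw library.
Ltc4s, the leukotriene C4 synthase gene, belonged to the genes past 2-fold in both genotypes too, at 111 CPM at 1 dpw and 478 CPM at 5 dpw in Angptl4+/+ members and 69.1 and 163 CPM in Angptl4-/- members. Its Angptl4-/- ratio of 1.24 was past 2-fold under 5 of the 8 alternative settings and ranged from 0.54 to 2.91.

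Among heme, iron and redox genes, 4 of 14 were past 2-fold higher in Angptl4+/+ members (Hmox1, Blvrb, Gclm and Prdx1) and 1, the cystine transporter gene Slc7a11, lower, with a median of 0.61. In Angptl4-/- members Blvrb, Gclm and Prdx1 were higher of 12 and 0 were lower, with a median of 0.36. Prdx1, the peroxidase gene, was at 835 CPM at 1 dpw and 1828 CPM at 5 dpw in Angptl4+/+ members and 659 and 2935 CPM in Angptl4-/- members, but the deepest member of the Angptl4-/- library at 5 dpw, with 26217 UMIs, gave 76.3% of the Prdx1 UMIs there, 78.2% of those of Gclm, a glutathione synthesis gene, and 53.4% of those of Blvrb, a biliverdin reductase gene. Without the top member of each library the Angptl4-/- ratio of Prdx1 was 0.32, that of Gclm 0.14 and that of Blvrb 0.89, all under 2-fold. The Angptl4+/+ ratios were 1.17 and 2.02 without the top member, and Prdx1 was at 0.96 among members with at least 5000 UMIs.

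The remaining lists gave few calls. Of the interferon-induced genes, Ly6a was past 2-fold higher of 9 in Angptl4+/+ members (median 0.14), and Isg15 and Ly6a were lower of 8 in Angptl4-/- members (median -0.65). Of the macrophage markers, Cx3cr1 was higher of 10 in Angptl4+/+ members (median 0.06), and 0 of 9 passed in Angptl4-/- members (median -0.35). Of the monocyte markers, Plac8 was higher and Vcan lower of 5 in Angptl4+/+ members (median -0.64), and 0 of 5 passed in Angptl4-/- members (median -0.46).
Of the 22 myeloid transcription factors in Angptl4+/+ members, Cebpa was past 2-fold higher (2.17) and the median was 0.05, while in Angptl4-/- members the early response genes Egr1 and Egr2 were lower of 20 and the median was -0.39. Of the matrix proteolysis genes, Mmp8 and Timp1 were lower and Timp2 higher of 14 in Angptl4+/+ members (median -0.32), and Mmp19 was lower and Mmp12, Mmp13 and Timp2 higher of 14 in Angptl4-/- members (median -0.10), where Mmp19 was at -0.24 among members with at least 5000 UMIs. Without the top members the Angptl4-/- ratios of Mmp12 and Mmp13 turned to -1.47 and -1.90, and that of Timp2 was past 2-fold under 5 of the 8 alternative settings, with a lowest value of 0.26. Among alternative activation and lectin genes, Folr2 and Cbr2 were higher and Mrc1, the mannose receptor gene, lower of 8 in Angptl4+/+ members (median 0.09), and 0 of 6 passed in Angptl4-/- members (median 0.10). Hypoxia genes had medians of 0.05 with Hilpda lower of 13 in Angptl4+/+ and -0.63 with 0 of 10 past 2-fold in Angptl4-/- members, where all 10 were below 0.
Glycolysis genes had medians of -0.20 and -0.38 with 0 of 15 past 2-fold in either genotype. Of the cell cycle list, only Pcna of 14 genes had enough UMIs to be counted, with day and genotype ratios from -0.53 to 0.54, and Mki67, the proliferation antigen gene, was at 0 in 3 of the 4 libraries and at 4.89 CPM in Angptl4+/+ members at 5 dpw.

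Single genes with wide day ratios in Angptl4+/+ members were of several kinds. Cx3cr1, the fractalkine receptor of tissue macrophages, was at 33.4 CPM at 1 dpw and 139 CPM at 5 dpw in Angptl4+/+ members and 11.2 and 103 CPM in Angptl4-/- members, higher in both 5 dpw libraries, with too few UMIs in Angptl4-/- members to be counted. Members with a UMI of Cx3cr1 and Adgre1 and none of the monocyte gene Ly6c2 numbered 2 and 2 at 1 dpw and 33 and 6 at 5 dpw. Hmox1, the heme oxygenase 1 gene, was at 1217 CPM at 1 dpw and 2919 CPM at 5 dpw in Angptl4+/+ members and 831 and 1294 CPM in Angptl4-/- members, so that the ratios were 1.26 (1.17 to 1.35) and 0.64 (0.47 to 0.81). Gstm1 (2.81), a glutathione transferase gene, and Pou2f2 (2.68), a transcription factor gene, were the highest together with Pltp, and Retnlg (-4.75), a neutrophil gene, Sema3c (-4.26), a semaphorin gene, and Serpinb2 (-3.92), an inhibitor of plasminogen activators, were among the lowest.

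**Figure D4:**
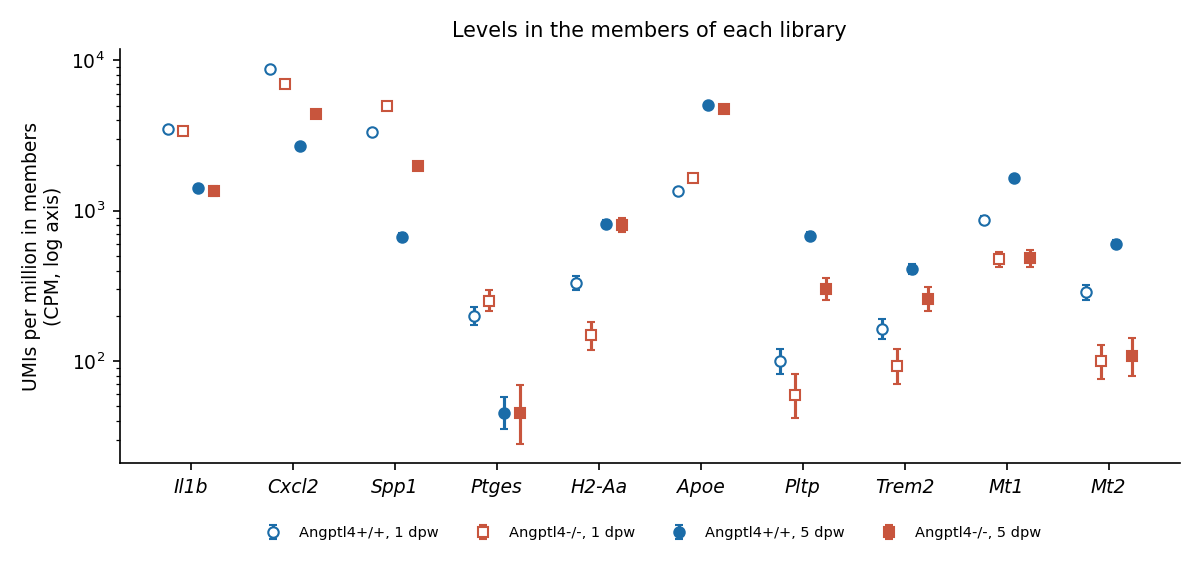
Level in members (vertical axis, CPM on a log scale, with exact Poisson 95% intervals) of 10 named genes in the 4 libraries. Il1b, Ptges and Cxcl2 stand lower in both 5 dpw libraries, H2-Aa, Apoe, Pltp and Trem2 higher, and Mt1 and Mt2 lower in both Angptl4-/- libraries.

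Few genes separated the genotypes in members at 1 dpw. Of 2724 genes with enough UMIs, 13 were past 2-fold higher in Angptl4-/- members (0.477%) and 15 lower (0.551%), with a median of 0.03. The median depth of these members was alike, at 3629 and 3917 UMIs.

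Interferon-induced genes lay above 0 in Angptl4-/- members at 1 dpw, 8 of 8 counted with a median of 0.61, of which 2 were past 2-fold higher and 0 lower. The rule capped Rsad2, Ifit1 and Ifit3, so this group was measured only below that limit. Isg15, a ubiquitin-like protein gene, was at 50.1 and 257 CPM at 1 dpw and 42.6 and 83.7 CPM at 5 dpw, and the log2 ratio at 1 dpw was 2.36 (95% interval 1.91 to 2.83). Neutrophils of the Angptl4-/- library at 1 dpw were higher in Isg15 as well, at 872 CPM against 292 CPM, and the members stood at 17.2% and 29.5% at 1 dpw and 15.8% and 12.8% at 5 dpw of the neutrophil level, where the 8 neutrophil markers were at most at 5.37%. Irf7, the transcription factor of the interferon response, was at 151 and 288 CPM at 1 dpw and 246 and 182 CPM at 5 dpw, with a ratio of 0.93 (0.61 to 1.24) at 1 dpw. At 5 dpw the list median was -0.03, with 4 of 9 above 0 and only Ly6a past 2-fold, lower.

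Ly6a, the Sca-1 antigen gene, was at 60.3 and 135 CPM at 1 dpw and 294 and 66.5 CPM at 5 dpw. It was highest in Angptl4+/+ members at 5 dpw, and the ratio turned from 1.16 (0.68 to 1.65) at 1 dpw to -2.14 (-2.72 to -1.62) at 5 dpw.

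MHC class II genes lay mostly below 0 in Angptl4-/- members at 1 dpw. The list median was -0.95, 5 of 6 counted genes were below 0, and H2-Aa (-1.17, -1.51 to -0.83) and H2-Eb1 (-1.55, -2.03 to -1.09) were past 2-fold lower. Neither was past 2-fold when members were thinned to 3000 UMIs, at -0.35 for H2-Aa and -0.83 for H2-Eb1, nor as a mean of each member's CPM. At 5 dpw the median was 0.06 and 0 of 7 were past 2-fold. Other genes lower at 1 dpw were Eps8, an actin regulator gene, at 196 and 59.5 CPM at 1 dpw and 156 and 120.2 CPM at 5 dpw with a ratio of -1.72 (-2.26 to -1.21), Cxcl1 (-1.42), a neutrophil attractant gene, F7 (-1.31), the coagulation factor VII gene, and Tnfrsf9 (-1.44), the costimulatory receptor 4-1BB gene. Gm5483, a stefin-family gene, had the lowest ratio at -2.35, but 1 Angptl4+/+ member gave 76.5% of its UMIs, and the ratio was -0.46 without the top members. Genes higher at 1 dpw included Areg, the amphiregulin growth factor gene, at 33.4 and 109 CPM at 1 dpw and 6.28 and 10.7 CPM at 5 dpw with a ratio of 1.71 (1.11 to 2.33), and Marcksl1, an actin-binding protein gene, at 167 and 479 CPM at 1 dpw and 115 and 150.2 CPM at 5 dpw with 1.52 (1.25 to 1.79).

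At 5 dpw more genes were past 2-fold between the genotypes. Of 2958 genes, 30 were past 2-fold higher in Angptl4-/- members (1.01%) and 75 lower (2.54%), with a median of -0.00070. Only 51 Angptl4-/- members stood behind these values and their median depth was 9037 against 5778 UMIs, so a single cell weighed heavily, and without the member with the most UMIs of each gene in each library 13 were higher and 113 lower. Of 2554 genes counted at both days, 0 were past 2-fold higher at both and 3 lower at both, Mt2, Fbxl5 and Impa2, which is 25% of the 12 lower at 1 dpw and 6.38% of the 47 lower at 5 dpw. The rule's own genes C1qa and C1qb are among the 75.

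The metallothionein genes, whose small cysteine-rich products bind zinc and copper, were lower in Angptl4-/- members at both days. Mt1 (chromosome 8, 94179082 to 94180327) was at 867 and 476 CPM at 1 dpw and 1639 and 483 CPM at 5 dpw, with genotype ratios of -0.87 (95% interval -1.06 to -0.68) at 1 dpw and -1.76 (-1.97 to -1.57) at 5 dpw. Mt2 (chromosome 8, 94172664 to 94173568) was at 286 and 99.6 CPM at 1 dpw and 601 and 107 CPM at 5 dpw, with ratios of -1.52 (-1.94 to -1.12) and -2.49 (-2.93 to -2.07). Both Angptl4-/- libraries lay below both Angptl4+/+ libraries for each gene. Without the member richest in the gene in each library the ratios at 5 dpw were -1.89 for Mt1 and -3.16 for Mt2, and among members with at least 5000 UMIs they were -1.70 and -2.81. At 1 dpw the Mt2 ratio was -1.37 without the top members and -0.73, under 2-fold, as a mean of each member's CPM. In the Il7r neighbours Mt2 was at 124 and 103 CPM at 1 dpw and 249 and 65.6 CPM at 5 dpw. Slc39a14, a zinc importer gene and the third of the zinc list with enough UMIs, lay above 0 at both days, and the list medians were -0.87 and -1.76, with 1 and 2 of 3 past 2-fold lower. Between days the list median was 0.92 in Angptl4+/+ members, where Mt2 was past 2-fold higher (1.07, and 0.76 among members with at least 5000 UMIs), and 0.02 in Angptl4-/- members with 0 past 2-fold.

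Metallothionein promoters are known for metal response elements, bound by the zinc-sensing factor MTF-1. They are shown because both genes were lower together, with the letters TGCACNC or TGCGCNC, searched on both strands in the 150 bases before the start site of the table, in capitals. Such letters were present in 14.67% of 32851 mouse promoters. Mt1 held 1 match that starts 23 bases before the start site and Mt2 held 2, at 128 and 50 bases before. The sequences are from RefSeq (GRCm38.p6), 5′ to 3′ on the coding strand, chr8:94178939-94179088 for Mt1 and chr8:94172468-94172617 for Mt2, both on the plus strand. The start sites of that table, 94179089 for Mt1 and 94172618 for Mt2, are 7 bases downstream and 46 bases upstream of the gene starts given above, and the distances are counted from the table's sites.
Mt1: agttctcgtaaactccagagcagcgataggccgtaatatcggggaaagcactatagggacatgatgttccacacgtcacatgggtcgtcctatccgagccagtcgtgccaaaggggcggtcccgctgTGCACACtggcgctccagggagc
Mt2: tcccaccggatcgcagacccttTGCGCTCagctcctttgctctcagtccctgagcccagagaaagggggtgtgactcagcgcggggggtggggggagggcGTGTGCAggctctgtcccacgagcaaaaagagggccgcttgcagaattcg

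Fbxl5, which encodes an iron-sensing ubiquitin ligase subunit, was at 405 and 194 CPM at 1 dpw and 399.9 and 161 CPM at 5 dpw, with genotype ratios of -1.06 (-1.36 to -0.76) and -1.31 (-1.68 to -0.96). Impa2, an inositol monophosphatase gene, was at 133 and 65.9 CPM at 1 dpw and 85.1 and 36.5 CPM at 5 dpw, with ratios of -1.01 (-1.55 to -0.50) and -1.22 (-2.05 to -0.48), and it was under 2-fold at both days among members with at least 5000 UMIs, at -0.67 and -0.83. For Fbxl5 both Angptl4-/- libraries lay below both Angptl4+/+ libraries, and for Impa2 the Angptl4-/- library lay below the Angptl4+/+ library of the same day.

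The genes lower in Angptl4-/- members at 5 dpw included several enzymes. Selenbp1, a selenium-binding methanethiol oxidase gene, was at 119.7 and 61.1 CPM at 1 dpw and 194 and 19.3 CPM at 5 dpw, with a ratio of -3.33 (-4.47 to -2.38) at 5 dpw. Ptgr1, a reductase gene that inactivates prostaglandins and leukotriene B4, was at 51.0 and 38.6 CPM at 1 dpw and 189 and 21.5 CPM at 5 dpw, with a ratio of -3.14 (-4.22 to -2.24). In both the Angptl4-/- library at 5 dpw was the lowest of the 4. Of the heme, iron and redox list Hmox1 alone was past 2-fold lower of 14 (-1.17, -1.30 to -1.05, list median -0.04), and of the lipid handling list Pltp alone of 14 (-1.18, -1.45 to -0.92, list median -0.17). At 1 dpw these lists had medians of -0.21 and -0.32, with Hebp1 past 2-fold higher in the former and 0 of 13 in the latter.
Plac8, a gene of classical monocytes, had a ratio of -1.36 (-1.57 to -1.15) at 5 dpw and Saa3, the acute-phase serum amyloid gene, one of -2.02 (-2.70 to -1.40). Lyz1, the second lysozyme gene, had the lowest ratio at -4.00 (-5.89 to -2.62), with levels of 60.3 and 75.5 CPM at 1 dpw and 137 and 8.58 CPM at 5 dpw, and S100a9 was at -1.84, where 1 Angptl4+/+ member held 64.9% of the UMIs and the ratio without the top members was -0.42. Lyz1 shares reads with its near-identical copy Lyz2, which limits how well the 2 genes can be told apart.

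Transcription factor and hypoxia genes lay mostly below 0 in Angptl4-/- members at 5 dpw. Of 22 myeloid transcription factor genes 20 were below 0, with a median of -0.33, and 2 were past 2-fold lower, Egr1 (-1.08, -1.33 to -0.84) and Cebpd (-1.14, -2.10 to -0.29). Of 12 hypoxia genes 9 were below 0, with a median of -0.68, and 1, Ankrd37, was past 2-fold lower (-1.27, -1.91 to -0.68). Of 15 glycolysis genes 13 were below 0, with a median of -0.22, and 1, Gpi1, was past 2-fold lower (and at -0.99 among members with at least 5000 UMIs), at 877 and 802 CPM at 1 dpw and 1269 and 633 CPM at 5 dpw. At 1 dpw these 3 lists had medians of 0.06, -0.10 and -0.02 with 0 genes past 2-fold.

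Chemokine genes were among those higher in Angptl4-/- members at 5 dpw. Of 12 chemokine genes 10 were above 0, with a median of 0.55, and 3 were past 2-fold higher, Ccl24, Cxcl3 and Ccl7. Ccl24, the eosinophil attractant eotaxin-2, was at 385 and 394 CPM at 1 dpw and 69.8 and 682 CPM at 5 dpw, with a ratio of 3.29 (2.96 to 3.63), and it was 2.64 without the top members. The Angptl4+/+ library at 5 dpw was the low one of the 4 for Ccl24 and for Cxcl3, whose genotype ratio at 5 dpw was 2.29 (2.11 to 2.47) and 1.58 without the top members. Ccl7, a monocyte attractant gene, was at 1.06, and at 0.78 without the top members, under 2-fold. At 1 dpw the chemokine median was -0.04, with Cxcl1 past 2-fold lower of 13.
Spp1 had a ratio of 1.57 (1.44 to 1.70) at 5 dpw, and of 1.02, close to the limit, without the top members. Cd63, a tetraspanin gene of late endosomes, was at 171 and 214 CPM at 1 dpw and 105 and 399 CPM at 5 dpw, with a ratio of 1.93 (1.61 to 2.25). Timp1, the metalloproteinase inhibitor gene, was at 204 and 207 CPM at 1 dpw and 53.0 and 157 CPM at 5 dpw, with 1.56 (1.08 to 2.04), and Pdpn, the podoplanin gene, was at 536 and 289 CPM at 1 dpw and 94.9 and 266 CPM at 5 dpw, with 1.49 (1.12 to 1.85). In Timp1, too, the Angptl4+/+ library at 5 dpw was lower than the other 3. Mmp13 and Mmp12, collagenase 3 and macrophage elastase, had the ratios 4.01 and 2.69, but 1 and the same Angptl4-/- member, of 12560 UMIs, gave 99.4% and 88.6% of their UMIs, and without the top members the ratios were -2.84 and -0.15.

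**Figure D5:**
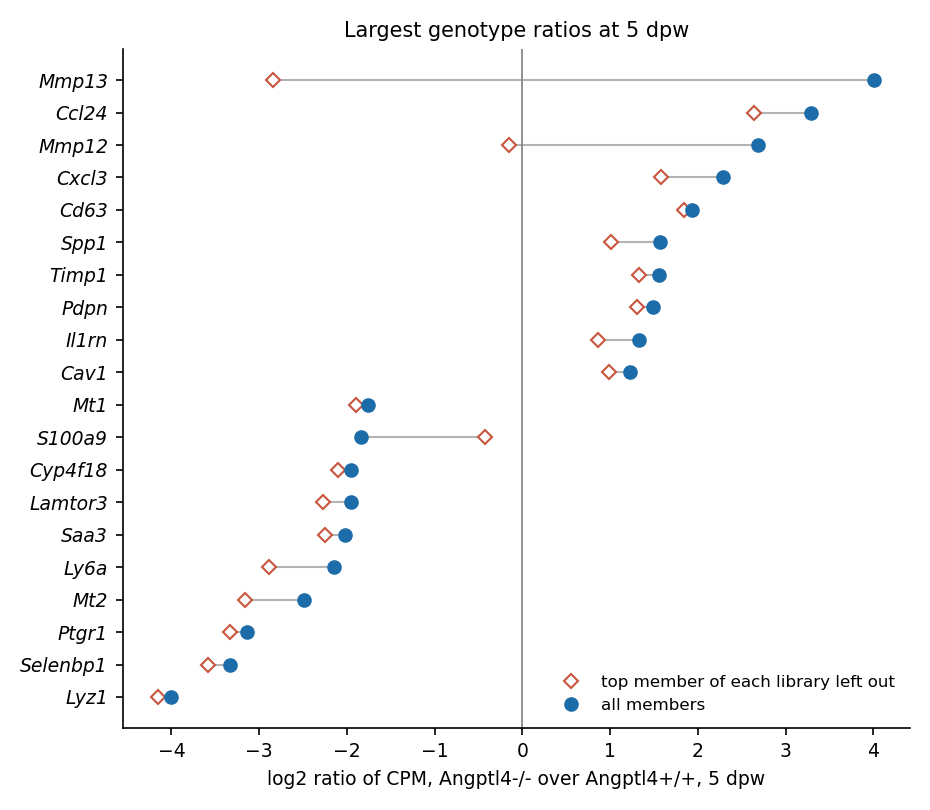
Log2 ratio of Angptl4-/- over Angptl4+/+ members at 5 dpw (horizontal axis) for the 10 genes with the highest and the 10 with the lowest ratio. Points give the ratio over all members and the ratio with the member richest in the gene left out of each library. No intervals are drawn. Mmp13 and Mmp12 move from 4.01 and 2.69 to -2.84 and -0.15, while Mt2 goes from -2.49 to -3.16.

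The other lists gave few calls between genotypes. Inflammatory genes had medians of -0.04 at 1 dpw and 0.12 at 5 dpw, with 0 of 13 and 1 of 10 past 2-fold, the latter Il1rn, higher at 5 dpw (1.33, 0.96 to 1.70). The Il1rn ratio was 0.86 without the top members and lay between 0.35 and 1.98 over the 8 alternative settings, with 6 of them past 2-fold. Provisional matrix genes had medians of 0.05 and -0.02, with F7 lower of 16 at 1 dpw and Spp1 higher of 15 at 5 dpw. The rule gene Fn1 is counted in this list, so its medians are a description. Matrix proteolysis genes had medians of 0.04 and 0.23, with 0 of 14 at 1 dpw and Mmp12, Mmp13 and Timp1 higher of 14 at 5 dpw.
Repair growth factors had medians of 0.01 and 0.23, with Areg higher of 6 at 1 dpw and 0 of 4 at 5 dpw. Alternative activation genes had medians of 0.13 and 0.20, with 0 of 6 at 1 dpw and Mrc1 higher of 8 at 5 dpw, at 389.8 and 325 CPM at 1 dpw and 131 and 294 CPM at 5 dpw. The C1q limit took out the most cells in the Angptl4+/+ library at 5 dpw, and its part in the Mrc1 ratio was not tested. The monocyte markers had medians of 0.26 and 0.22, with 0 of 5 at 1 dpw and Plac8 lower of 5 at 5 dpw. The neutrophil markers had medians of -0.19 and -1.44, with 0 of 3 at 1 dpw and S100a8 and S100a9 lower of 2 at 5 dpw. Without the top members S100a8 went from -1.05 to -0.17 and S100a9 to -0.42, so that neither was past 2-fold. The macrophage markers had medians of 0.14 and -0.02 with 0 of 9 and 0 of 10 past 2-fold.

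Members were also set beside other cells of the same libraries. The rule sets these cells apart, so the levels are a description, given as the range over the 4 libraries. The Il7r neighbours (220 and 121 cells at 1 dpw, 82 and 42 at 5 dpw) were deeper cells, and in every library they held more Lgals3, the galectin-3 gene (2869 to 4096 CPM in members and 6004 to 8094 CPM in neighbours), and more Vim, the vimentin gene (4679 to 5833 CPM in members and 6072 to 7245 CPM). Members held more Ccr2 (1051 to 1252 CPM in members and 368 to 744 CPM) and more Adgre1 (100.2 to 167 CPM in members and 64.1 to 95.9 CPM). Spp1 did not separate them, at 669 to 5004 CPM in members and 2487 to 7524 CPM.

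Cells rich in C1q (80 and 72 cells at 1 dpw, 651 and 230 at 5 dpw) held more Mrc1 (131 to 389.8 CPM in members and 434 to 995 CPM in C1q-rich cells) and more Apoe (1355 to 5021 CPM in members and 5333 to 9323 CPM). Members held more Ero1l, an endoplasmic reticulum oxidase gene known to be induced by low oxygen (403 to 948 CPM in members and 84.2 to 306 CPM). The C1q limit of the rule took out 20 and 11 cells at 1 dpw and 259 and 36 at 5 dpw. Its part in the day and genotype ratios of Mrc1 and Apoe in members was not tested. Cells with Ly6c2 and Plac8 that lay outside the rule (130 and 104 cells at 1 dpw, 177 and 167 at 5 dpw) held more Ly6c2 by the way they were chosen, and more Chil3 (337 to 787 CPM in members and 1129.8 to 1979 CPM in these cells). Members held far more Mt1 (476 to 1639 CPM in members and 63.7 to 104 CPM) and Pf4, the platelet factor 4 gene (1036 to 3399 CPM in members and 37.0 to 142 CPM). Each of these ranges was separate from the other, apart from Spp1.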

How the data were processed

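Members and gene lists were chosen with earlier results of these data known. The authors ran Cell Ranger (3.1.0) against mm10, and the deposited values are unnormalized UMI counts per gene (31053) and barcode. Their notes also name Seurat (3.0). All 20069 deposited barcodes were read, and 19827 with at least 200 genes and at most 10% mitochondrial UMIs were kept. Library totals were 32962595 and 27472052 UMIs at 1 dpw and 29746688 and 26981596 at 5 dpw (Angptl4+/+ first). No cell annotation was used. Counts were summed over members and scaled to CPM. Intervals (95%) were Clopper-Pearson for shares, Newcombe for differences, exact Poisson for CPM and exact conditional binomial for log2 ratios, and no p-value was computed. Doublets were scored against simulated ones and kept. The code was tested on simulated data. Named genes came from 26 lists, the 20 most abundant genes, the 10 highest and 10 lowest ratios of each comparison outside the rule, mitochondrial and ribosomal protein genes, those past 2-fold in both paired comparisons, and Angptl4, Ifi202b and Hebp1. Members with a UMI of Cx3cr1 and Adgre1 but not Ly6c2 were counted after seeing the data. Alternatives varied the rule, cell filter, depth, UMI minimum, scaling and top member. Python 3.11.15, numpy 2.4.6, scipy 1.17.1, pandas 2.3.3, scikit-learn 1.9.0 and matplotlib 3.10.9 were used. Of the list genes, 2 were not matched in the files. The further gene of the rule and some other genes are not reported here.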

Additional observations from a re-analysis of the deposited data

Results flagged for a closer look

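Ly6a stood out because its difference between the genotypes had opposite signs on the 2 days. The log2 ratio of Angptl4-/- over Angptl4+/+ members was 1.16 at 1 dpw and -2.14 at 5 dpw, and its ratio of 5 over 1 dpw was 2.28 in Angptl4+/+ and -1.02 in Angptl4-/- members. The difference was not tested. The Angptl4-/- day ratio was past 2-fold under 5 of 8 alternative settings and the 1 dpw genotype ratio under 6, with values of -0.96 and 0.74 nearest to 0, and 1 member gave 45.2% of the Ly6a UMIs in the Angptl4-/- library at 5 dpw.

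The share of members stood out because it differed between the days in opposite directions, by 0.739 percentage points in Angptl4+/+ wounds and by -1.67 points in Angptl4-/- wounds. With 1 library in each condition this difference was not tested. The directions were not opposite among cells with at least 5000 UMIs, an alternative chosen after seeing the data. There the 5 dpw library had the larger share in both genotypes. Angptl4-/- members took 2.97% against 2.09% on the earlier day, and Angptl4+/+ members 7.18% against 3.06%.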

How the results depend on the processing

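Members took a lower share in the Angptl4-/- library of each day under all 8 alternatives. The difference at 5 dpw moved to -2.72 points with both lower limits at 10 UMIs, to -8.27 without the C1q, Retnla and interferon-gene limits, and to -4.21 among cells with at least 5000 UMIs, an alternative that, like leaving out the top member, was chosen after seeing the data. Among cells with at least 5000 UMIs the Angptl4-/- share was also higher, not lower, on the later day (2.97% against 2.09%).
Counts of genes past 2-fold followed the minimum of UMIs. With 30 UMIs they were 96 higher and 112 lower for genotype at 1 dpw, 130 and 307 at 5 dpw, 300 and 200 for day in Angptl4+/+ and 137 and 227 in Angptl4-/- members. With 300 UMIs they were 6 and 5, 10 and 23, 34 and 39, and 10 and 17. With members thinned to 3000 UMIs they were 7 and 4, 13 and 37, 49 and 53, and 11 and 23. Without the top member of each gene 13 were higher and 113 lower for genotype at 5 dpw and 15 higher for day in Angptl4-/- members, members with at least 5000 UMIs gave 28 lower for genotype at 1 dpw, and the mean of each member's CPM gave 57 higher for genotype at 5 dpw. The cause of these changes was not tested beyond the smaller or larger number of genes counted.
Of 404 gene ratios past 2-fold over the 4 comparisons, 316 were also called with the mean of each member's CPM, 331 without the top members, 290 with both lower limits at 10 UMIs, 262 among members with at least 5000 UMIs and 126 with members thinned to 3000 UMIs, where the last 4 also left fewer genes with 100 UMIs, and 383 to 394 under the other 3 alternatives that could change a ratio. Of the 194 of them that belong to the named genes, 157 to 192 stayed past 2-fold under each of these 8, with no minimum of UMIs applied again. Beside the losses given with each gene, there were further ones among list genes and Fbxl5. Cxcl1 for genotype at 1 dpw, Ppbp for day in Angptl4-/- members and Il1a and Nfkbia for day in Angptl4+/+ members stayed past it under 6. Cbr2, Ccl4, Cd74, Cd80, Cxcl16, Folr2, H2-DMb1, Hilpda, Nlrp3 and Plac8 for day in Angptl4+/+ members stayed past it under 7. So did Fbxl5 for genotype at 1 dpw and Hmox1, Mrc1 and Plac8 for genotype at 5 dpw. Mmp12 and Mmp13 changed sign. For genotype at 5 dpw Mmp12 was at -0.15 without the top member, and Mmp13 at -0.26 with both lower limits at 10 UMIs and -2.84 without the top member. For day in Angptl4-/- members the values were -1.45 and -1.47 for Mmp12 and -1.12 and -1.90 for Mmp13 under the same 2 alternatives.
No paired analysis was possible because each condition had 1 library, and no replicate could be left out for the same reason.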
